A study of Mus musculus with 24 samples.

Results

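The proteasome subunit genes described here are the 48 protein-coding genes of GENCODE (mm10) whose symbols begin with Psma, Psmb, Psmc, Psmd, Psme or Psmg, of 21951 protein-coding genes in all. The rule uses their names and no measured value, and 1 further gene of the family is left out. They comprise 7 alpha-ring genes and a testis form, 7 beta-ring genes, 3 inducible or tissue-specific beta genes, 6 ATPase-ring genes, 3 other base genes, 8 lid genes, 3 chaperones of the regulatory particle, 5 activator genes and 4 assembly chaperones of the core. The remaining gene, Psmc3ip, is found by the rule but encodes a partner of meiotic recombinases and not a proteasome subunit.

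Open chromatin was profiled with ATAC-seq, an assay that uses the Tn5 transposase to cut and tag exposed DNA, in macrophages grown from the bone marrow of 4 BTBR T+ Itpr3tf/J (BTBR) and 4 C57BL6/J male mice at postnatal day 28. BTBR is an inbred strain that carries the Itpr3 tf allele given in its name and is studied for altered behaviour and immune responses. From every animal there was a media culture with no stimulus, a culture with 1 exposure to bacterial lipopolysaccharide (LPS, 100 ng/ml), lasting 24 hours (LPSx1), and a culture that received LPS for 4 hours and, after a wash and a rest, a further 24 hours (LPSx2). The comparisons ask whether open chromatin at these genes differs after 1 or 2 LPS exposures and between the strains.

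The proteasome degrades proteins tagged with ubiquitin. Its core is a barrel of alpha and beta rings, with the cutting sites on some beta subunits, and it is capped by a regulatory particle of an ATPase ring, other base subunits and a lid, or by activators such as PA28 (Psme1 and Psme2). In cells exposed to interferon, standard cutting subunits are exchanged for inducible ones such as Psmb9 and Psmb10, which favours peptides for class I antigen presentation, and macrophages are among the cells in which this form is known.

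Each of the 24 libraries was deposited as its own list of peaks of equal width with a score. Read numbers were not part of the lists, and the only measure of depth was the number of peaks, which ran from 299 to 127291. For being too short, 2 lists of C57BL6/J animal 6 were left out, the media list with 299 peaks and the LPSx2 list with 1879. In them, 0 and 2 member promoters (Psma5 and Psma2) had a peak. The 22 kept libraries were 7 media, 8 LPSx1 and 7 LPSx2 libraries, with 12 from BTBR and 10 from C57BL6/J. In 7 lists most peaks overlapped another peak of the same list, and overlapping peaks were merged. Lists of a sequencing lane, which held 1 animal of each strain, were limited to the length of the shortest kept list of that lane (11349 to 22037 peaks). The shortest was a media list in lanes 1, 2 and 3 and an LPSx1 list in lane 4. After merging, kept C57BL6/J media lists held at most 22382 peaks and C57BL6/J LPS lists at least 24734, while BTBR lengths overlapped between treatments. Within lanes the limit thus removed more peaks from C57BL6/J LPS lists than from C57BL6/J media lists. The longest list, a BTBR LPSx2 list of lane 1, was cut from 127242 peaks to 11349. Of 10 macrophage marker genes, 8 had a promoter peak in at least 11 libraries, with Mrc1 in 0. None of 5 B cell, 5 fibroblast or 4 erythroid markers had one in any library, while Cd3d of the 5 T cell markers had one in 4 libraries and S100a8 and Mmp8 of the 5 neutrophil markers in 17 and 7. The peaks summed over the macrophage list numbered 10 to 37 (media), 6 to 43 (LPSx1) and 5 to 54 (LPSx2). Over the T cell list they numbered 1 to 4, 1 to 4 and 1 to 5, and over the neutrophil list 0 to 2, 0 to 3 and 0 to 3. Their part in the results below was not tested.

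The promoter windows of Psmc5, Psma1, Psmb6 and Psme1 are shown first as examples, of which Psme1 was called in no contrast. They are RefSeq windows (GRCm38.p6) from 250 bases before to 50 bases after the annotated start, given 5′ to 3′ on the strand of the gene, with searched motifs in capitals. Psmc5 encodes an ATPase of the base, Psma1 an alpha-ring subunit, Psmb6 the standard caspase-like cutting subunit that Psmb9 replaces, and Psme1 the PA28 alpha subunit. Capitals mark the NRF1 factor motif in Psmc5, 2 NF-Y motifs in Psma1, the antioxidant response element core in Psmb6 and the interferon-stimulated response element in Psme1.
Psmc5, chr11:106255935-106256234, plus strand: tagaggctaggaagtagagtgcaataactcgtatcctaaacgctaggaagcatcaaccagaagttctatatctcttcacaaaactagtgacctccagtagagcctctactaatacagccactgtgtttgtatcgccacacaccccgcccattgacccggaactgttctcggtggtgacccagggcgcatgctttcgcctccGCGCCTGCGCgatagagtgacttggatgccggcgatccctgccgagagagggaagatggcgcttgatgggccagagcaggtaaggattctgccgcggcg
Psma1, chr7:114276067-114276366, minus strand: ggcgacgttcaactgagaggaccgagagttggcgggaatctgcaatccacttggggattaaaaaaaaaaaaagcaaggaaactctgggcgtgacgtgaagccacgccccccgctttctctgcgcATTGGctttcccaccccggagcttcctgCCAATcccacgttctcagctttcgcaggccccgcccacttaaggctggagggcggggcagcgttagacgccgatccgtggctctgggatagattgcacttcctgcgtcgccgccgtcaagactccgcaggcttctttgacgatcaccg
Psmb6, chr11:70525107-70525406, plus strand: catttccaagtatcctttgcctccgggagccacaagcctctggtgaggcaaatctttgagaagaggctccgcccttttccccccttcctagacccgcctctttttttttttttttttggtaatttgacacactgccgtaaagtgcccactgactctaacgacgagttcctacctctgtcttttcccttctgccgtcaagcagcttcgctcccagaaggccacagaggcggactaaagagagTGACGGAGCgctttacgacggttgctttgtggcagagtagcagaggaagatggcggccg
Psme1, chr14:55578244-55578543, plus strand: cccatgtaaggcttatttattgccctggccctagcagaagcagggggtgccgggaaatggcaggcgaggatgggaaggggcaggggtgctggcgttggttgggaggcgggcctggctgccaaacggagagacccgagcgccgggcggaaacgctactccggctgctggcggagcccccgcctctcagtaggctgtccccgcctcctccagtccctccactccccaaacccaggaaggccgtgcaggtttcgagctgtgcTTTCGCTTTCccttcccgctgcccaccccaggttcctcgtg
For Psmb9, which starts 38 bp from the divergent Tap1 gene (a subunit of the peptide transporter of antigen presentation), the RefSeq window lies beside the strongest accessible site and covers only its edge. The strongest peak of the kept libraries at that shared start, from the LPSx2 library of BTBR animal 3, is therefore shown as read from the reference genome on the strand of Psmb9. Capitals mark an interferon-stimulated response element.
Psmb9 and Tap1 peak, chr17:34187578-34187778, minus strand: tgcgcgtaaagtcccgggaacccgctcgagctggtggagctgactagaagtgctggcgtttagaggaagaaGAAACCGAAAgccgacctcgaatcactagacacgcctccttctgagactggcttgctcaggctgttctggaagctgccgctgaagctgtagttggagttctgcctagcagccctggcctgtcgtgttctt

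The motif letters were searched on both strands in the 43 windows found for 40 of the 48 genes. They were also searched in all 21263 RefSeq windows of protein-coding genes, of the same length. The ETS motif CCGGAAG was held by 16 of the 43 windows (37.2%), against 11.6% of all windows. The NRF1 factor motif was held by 7 (16.3%), among them Psmc5, Psmc4, Psma2 and Psma4, against 8.57% of all. The interferon-stimulated response element was held by 5 (11.6%), at Psmb3, Psmd4, Psmd9, Psme1 and Psmg4, against 3.35% of all. The NF-Y motif CCAAT was held by 34.9% against 38.2%, and the antioxidant response element core TGACNNNGC, recognised by the Nfe2l1 and Nfe2l2 factors that drive proteasome genes, by 14.0% against 13.0%. The NF-kB motif and the CRE motif TGACGTCA, which begins with the same letters as the antioxidant core, were in 0 of the 43 windows, against 0.423% and 2.23% of all. These shares describe letters in the windows and were not tested.

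Most proteasome genes had an accessible promoter in these macrophages. A peak centred within 1 kb of a start site was present in at least 11 of the 22 libraries at 29 of the 48 genes (60.4%), against 32.7% of all 21866 protein-coding genes with an annotated start. It was present in every library at 9 (18.8% against 11.9% of all genes) and in none at 7 (14.6% against 50.4%). The 9 genes were Psma4, Psma5 and Psma6 of the alpha ring, Psmb1 of the beta ring, the ATPases Psmc4 and Psmc6, the lid subunits Psmd8 and Psmd11, and the PA28 beta subunit Psme2. The 7 without one were the testis subunit Psma8, the thymus subunit Psmb11, the inducible Psmb10, the ATPase Psmc1, the large base subunit Psmd1, the Psme2 copy Psme2b and the chaperone Psmg3. In the lists at full length 2 genes, Psmb11 and Psme2b, had no promoter peak in any library, and Psmb10 had one in 2, Psmc1 in 5, Psmg3 in 6 and Psmd1 in 8.

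The strength of a promoter peak was read as its percentile rank among all peaks of its list, with 100 the strongest and 0 where there was no peak. The mean rank over the 22 libraries was 89.1 ± 9.15 (SD) for Psme2, 83.1 ± 19.8 for Psma6, 83.0 ± 10.9 for Psmc4 and 81.6 ± 9.72 for Psma5. The alpha ring was the most evenly accessible class. All 7 of its genes had a promoter peak in at least 11 libraries, and the median of their mean ranks was 73.6. The lid followed with 7 of 8 genes and a median of 39.8. In the ATPase ring 3 of 6 genes reached 11 libraries and the median was 14.4, and in the beta ring 3 of 7 genes did and the median was 13.7. The other base subunits had 1 of 3, the chaperones of the regulatory particle 2 of 3, the activators 3 of 5 and the core assembly chaperones 1 of 4. Over all 48 genes the median of the mean ranks was 24.5, and over all protein-coding genes it was 0.

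**Figure D1:**
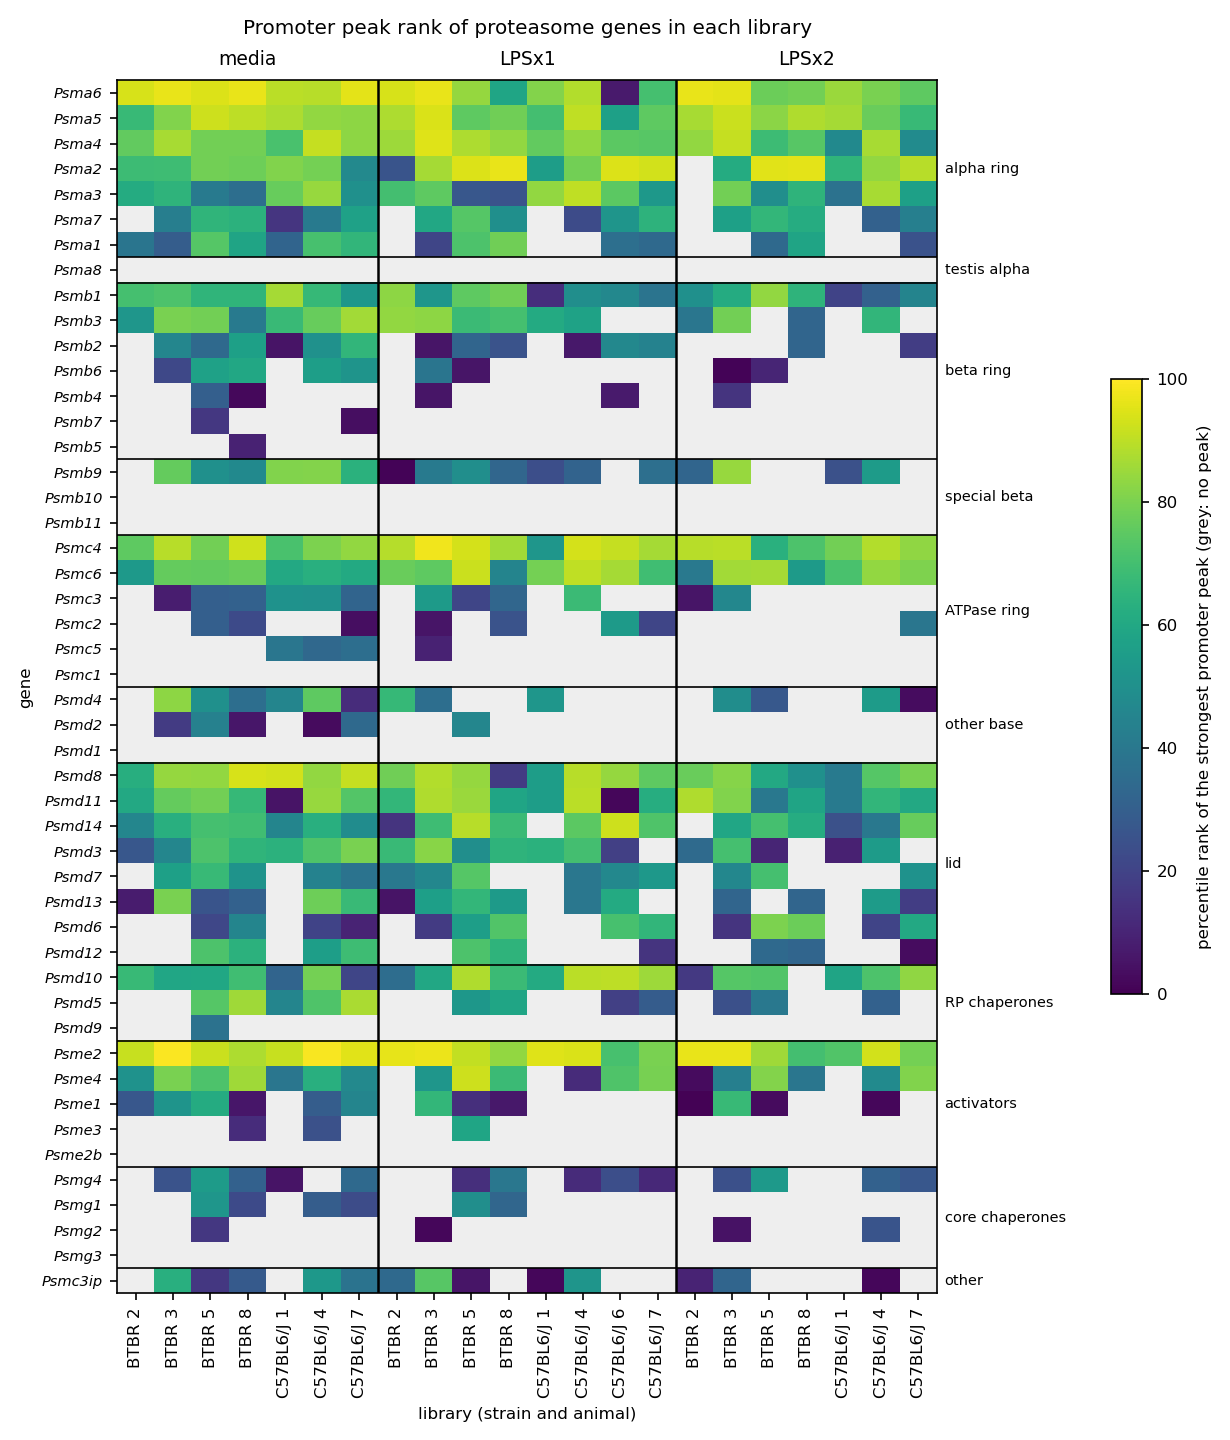
Percentile rank of the strongest promoter peak (colour, 0 to 100, grey where there was no peak) of each of the 48 genes (rows, grouped by role and ordered within a role by mean rank) in each of the 22 kept libraries (columns, by treatment, strain and animal). The rows of Psma4, Psma5, Psma6, Psmb1, Psmc4, Psmc6, Psmd8, Psmd11 and Psme2 are filled in all 22 columns, while 7 rows are empty.

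The cutting subunits of the standard core lay at the low end. Psmb5, which carries the chymotrypsin-like site, had a promoter peak in 1 library (a BTBR media library, rank 9.46), and Psmb7, which carries the trypsin-like site, in 2 media libraries, at most at rank 16.1. Psmb6 had one in 9 libraries. In the lists at full length these numbers were 6, 9 and 15 of 22. Of the other beta-ring genes Psmb4 had one in 5 libraries, against 14 for Psmb2, 17 for Psmb3 and 22 for Psmb1. The remaining genes with a promoter peak in under 11 libraries were the base subunit Psmd2 (6 libraries), the ATPases Psmc2 (8) and Psmc5 (4), the lid subunit Psmd12 (10), the base chaperone Psmd9 (1), the nuclear activator Psme3 (3), and the core chaperones Psmg1 (6) and Psmg2 (4). By treatment, the limited lists held the Psmd2 peak in 5 media libraries, 1 LPSx1 library and 0 LPSx2 libraries, and that of Psmg1 in 4, 2 and 0. Psmc2 had it in 3, 4 and 1, and Psmd12 in 4, 3 and 3. In the lists at full length these numbers were 6, 4 and 2 for Psmd2 and 5, 6 and 2 for Psmg1. They were 5, 5 and 2 for Psmc2 and 6, 5 and 5 for Psmd12.

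Of the 48 genes, 12 (25%) started within 1 kb of another protein-coding gene, against 12.9% of all genes. A peak at such a start may lie near both genes and may be assigned to the partner. Psma2 and Mrpl32 (a mitochondrial ribosomal protein) started 75 bp apart, and Psma2 had a promoter peak in 21 libraries. Other such pairs were Psmb1 with Tbp, Psmc5 with Ftsj3, Psmd13 with Sirt3, Psmc2 with Dnajc2 and Psme2 with Rnf31. Which gene of a pair the accessibility belongs to cannot be told apart in these data.

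In libraries from LPS-treated cells, fewer proteasome promoters had a peak in the limited lists. These are bulk samples, in which fewer cells with an open site and a less open site in each cell cannot be told apart. In media libraries 31.1 ± 7.10 of the 48 genes had a promoter peak (SD, n = 7, lowest 19, median 34, highest 38). In LPSx1 libraries the number was 25.5 ± 5.58 (n = 8, lowest 17, median 24.5, highest 33), and in LPSx2 libraries it was 22.4 ± 5.32 (n = 7, lowest 15, median 24, highest 30). The ranges overlapped. As shares of the 48 genes the means were 64.9% in media, 53.1% in LPSx1 and 46.7% in LPSx2. Over all protein-coding genes the share with a promoter peak was 35.8% ± 7.11 in media, 30.3% ± 5.45 in LPSx1 and 28.6% ± 5.71 in LPSx2. The share was thus lower after LPS for all genes as well. No test was made of these numbers. Within animals, the number of member promoters was lower in LPSx1 than in media in 5 of 7 and higher in 2, and lower in LPSx2 than in media in 6 of 7 and higher in 1. It was lower in LPSx2 than in LPSx1 in 5, higher in 1 and equal in 1. Within the 4 lanes the mean difference ran from -10 to -3.5 genes for LPSx1 minus media and from -14.5 to -3.5 for LPSx2 minus media.

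The result was less uniform in the lists at full length, which differ in length between libraries and, in C57BL6/J, were longer after LPS than in media. There 37.4 ± 6.43 of the 48 genes (78.0%) had a promoter peak in media, 35.0 ± 5.15 (72.9%) in LPSx1 and 31.7 ± 8.04 (66.1%) in LPSx2, against 43.4%, 41.8% and 40.6% of all genes. The number was lower than in media in 4 of 7 animals with LPSx1 and in 5 of 7 with LPSx2, and in lane 1 it was higher by 4.5 and 3 genes. In C57BL6/J the full-length means in media, LPSx1 and LPSx2 were 33, 33.25 and 31.7, without the fall of the limited lists (31.7, 22.5 and 21.7). In BTBR they were 40.75, 36.75 and 31.75 at full length and 30.75, 28.5 and 23 in the limited lists. Each of these groups held 3 or 4 libraries. By strain, the limited lists held 27.4 ± 7.15 such genes in BTBR (n = 12) and 25 ± 6.41 in C57BL6/J (n = 10), which differed by less than the spread between libraries. The share of gene-assigned peaks that lay at proteasome genes was 0.263% ± 0.0304 in media, 0.237% ± 0.0319 in LPSx1 and 0.223% ± 0.0240 in LPSx2. Within lanes the difference ran from -0.0744 to 0.0289 percentage points for LPSx1 minus media and from -0.0918 to 0.0144 for LPSx2 minus media. The share was 0.242% ± 0.0348 in BTBR and 0.239% ± 0.0305 in C57BL6/J.

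**Figure D2:**
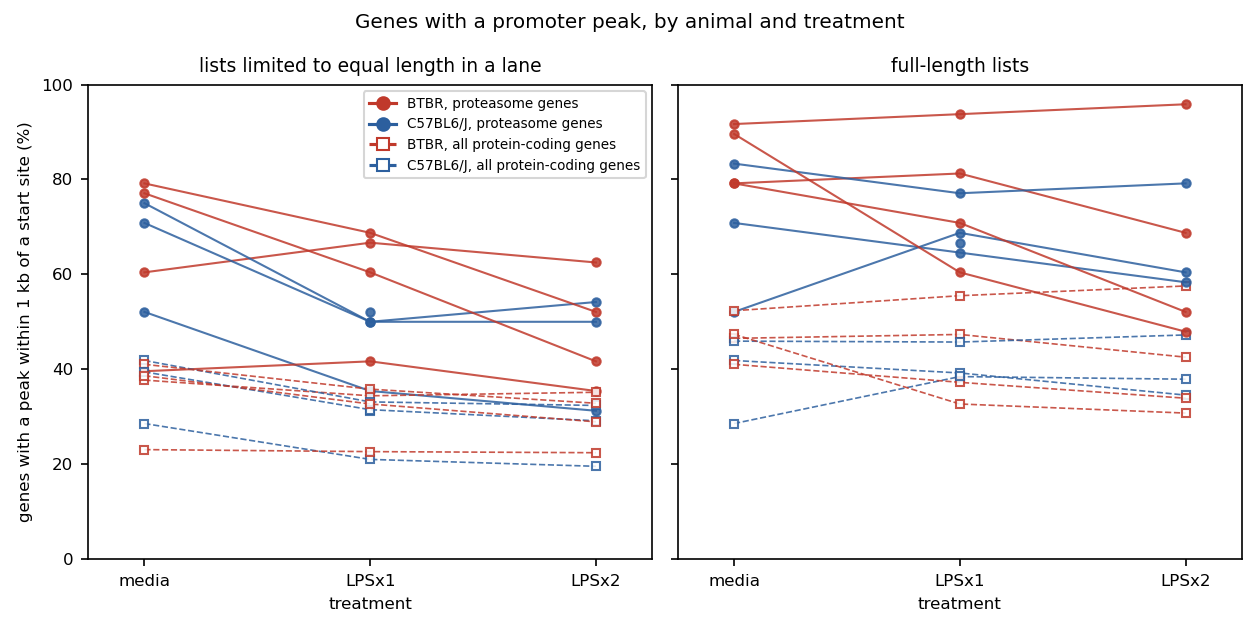
Percent of the 48 proteasome genes (filled circles, solid lines) and of all protein-coding genes (open squares, dashed lines) with a peak within 1 kb of a start site, for each animal (lines) in media, LPSx1 and LPSx2, in lists limited to equal length within a lane (left) and at full length (right). The proteasome genes lie above all genes in every library, and in the left panel most lines run lower in LPSx1 and LPSx2 than in media.

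Promoter rank was then compared gene by gene in 1 limma fit of 9473 genes with a promoter peak in at least 4 libraries, with the lane as a covariate, among them 37 of the 48 members. With a single dose of LPS 4 members were lower than in media (10.8% of the 37) and 0 higher, at an adjusted p under 0.05. Of all genes tested 13.0% were lower and 1.59% higher, so the share of members called was near the background. The median difference was -8.24 rank points for the members and -7.51 for all genes tested. The 4 members were the base chaperone Psmd5, the cutting subunit Psmb6, the alpha subunit Psma1 and the ATPase Psmc5. With the animal as a block in place of the lane, 2 were called, Psma1 and Psmc5. Psmc5 had a promoter peak in exactly 4 libraries, 3 of them C57BL6/J media libraries, and so was tested only because of the group in which it was high. Its call is counted here and in LPSx2 minus media but supports nothing.

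With 2 doses of LPS 7 members were lower than in media (18.9%) and 0 higher, against 18.3% of all genes lower and 1.97% higher, again near the background. The median difference was -14.6 for the members and -9.47 for all genes. The 4 members called with a single dose were called again, together with the beta-ring genes Psmb2 and Psmb3 and the lid subunit Psmd3. By class, 3 of 5 beta-ring genes tested were lower (median difference -30.3), 1 of 7 in the alpha ring (-6.39), 1 of 8 in the lid (-15.8), 1 of 5 in the ATPase ring (-0.65) and 1 of 2 chaperones of the regulatory particle (-19.4). None was called of 2 other base genes (-19.4), 3 activators (-18.6), 3 core assembly chaperones (-1.05) and 1 inducible beta gene (-31.7). The classes were not tested against each other. LPSx2 and LPSx1 were each set against the same media libraries, so these 2 sets of values are not independent. In LPSx2 minus LPSx1 limma called 0 members and 0 of all genes, a background of 0%. At an unadjusted p under 0.05 there were 4 members, Psma4, Psmd3, Psmb3 and Psmc3ip, all lower in LPSx2, and 494 genes in all.

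In the limited lists Psma1 had a promoter peak in all 7 media libraries, 5 of 8 LPSx1 libraries and 3 of 7 LPSx2 libraries. In the lists at full length it had one in all 22 libraries. Its mean ranks there were 68.4 in media, 64.2 in LPSx1 and 41.1 in LPSx2. In the limited lists its rank in media had a lowest value of 29.4, a median of 58.5 and a highest of 73.5. In LPSx1 these were 0, 27.5 and 78.5, and in LPSx2 they were 0, 0 and 58.5. The lowest media library was above the median of both LPS groups, though the groups overlapped. The fitted difference was -26.4 ± 7.17 rank points (SE) for LPSx1 minus media (adjusted p = 0.0264 by limma, lower in 6 of 7 animals) and -37.5 ± 7.37 for LPSx2 minus media (adjusted p = 0.00483, lower in 6 of 7). Within lanes the LPSx1 difference ran from -39.6 to -1.60 and the LPSx2 difference from -50.1 to -20.5. The LPSx1 call was lost without animal 2, 3, 4 or 5 (adjusted p = 0.0742, 0.0659, 0.111 and 0.0778 by limma), and the LPSx2 call was kept without any single animal.

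Psmb6 had a promoter peak in 5 media, 2 LPSx1 and 2 LPSx2 libraries. Its median rank in media was 51.7 (lowest 0, highest 60.0), and its median was 0 in both LPS groups, with highest values of 38.8 in LPSx1 and 10.5 in LPSx2. The 2 media libraries without a peak in the limited lists were those of lane 1, where no limited list had one. The differences were -30.7 ± 8.75 for LPSx1 minus media (adjusted p = 0.0311 by limma) and -33.8 ± 8.999 for LPSx2 minus media (adjusted p = 0.0200). The LPSx1 call was lost without animal 4, 5, 6, 7 or 8 (adjusted p from 0.0546 to 0.148 by limma) and the LPSx2 call without animal 4, 5, 7 or 8 (from 0.0628 to 0.108). In the limited lists of C57BL6/J the peak was present in 2 of 3 libraries in media and in none after LPS. In the C57BL6/J lists at full length it was present in 2 of 3 media, 3 of 4 LPSx1 and 0 of 3 LPSx2 libraries. Over both strains the lists at full length held it in 6 media, 6 LPSx1 and 3 LPSx2 libraries.

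Psmd5, which holds the ATPase ring during assembly, had a median rank of 72.4 in media (lowest 0, highest 87.4), 9.42 in LPSx1 (0 to 58.6) and 0 in LPSx2 (0 to 40.0). It differed by -38.0 ± 10.9 for LPSx1 minus media (adjusted p = 0.0323 by limma, lower in 5 of 7 animals and equal in 2) and by -40.9 ± 11.2 for LPSx2 minus media (adjusted p = 0.0220, lower in 5 animals, higher in 1 and equal in 1). In all 4 lanes both differences were below 0. In the lists at full length Psmd5 had a promoter peak in 7 media, 7 LPSx1 and 6 LPSx2 libraries, against 5, 4 and 3 in the limited lists. The LPSx1 call was lost without animal 1, 2, 4, 5, 6 or 7 (adjusted p from 0.0562 to 0.132 by limma) and the LPSx2 call without animal 1, 5, 7 or 8 (from 0.0509 to 0.104). It was the only member still called lower when peaks were ranked among promoter peaks alone, by -31.5 ± 8.88 in LPSx1 (adjusted p = 0.0396 by limma) and -30.0 ± 9.13 in LPSx2 (adjusted p = 0.0474).

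Psmb3, Psmb2 and Psmd3 were called with 2 doses alone. Psmb3 had a median rank of 76.6 in media (lowest 41.1, highest 86.0), 64.6 in LPSx1 (0 to 83.9) and 32.8 in LPSx2 (0 to 78.8), and was lower in LPSx2 than in media in 7 of 7 animals (-40.1 ± 10.99, adjusted p = 0.0220 by limma). Psmb2 had medians of 46.0, 15.95 and 0 in media, LPSx1 and LPSx2 and differed by -30.3 ± 7.06 in LPSx2 minus media (adjusted p = 0.0112 by limma, lower in 6 animals and equal in 1). Psmd3 had medians of 65.6, 64.4 and 10.5 and differed by -37.4 ± 11.5 (adjusted p = 0.0356 by limma, lower in 5 of 7). In lane 2 its difference was 3.44, and it lost its call when the animal replaced the lane as a block. The LPSx2 calls were lost without animal 1, 5, 7 or 8 for Psmb3 (adjusted p from 0.0543 to 0.112 by limma), without animal 4 or 7 for Psmb2 (0.0608 and 0.0741), and without animal 1, 4, 5, 7 or 8 for Psmd3 (from 0.0546 to 0.141). In the single-dose contrast the same genes gave -14.4 ± 10.7, -18.5 ± 6.87 and -8.83 ± 11.2 (adjusted p = 0.372, 0.0798 and 0.621 by limma). That the LPSx2 and LPSx1 responses of these genes differ was not shown, since none was called in LPSx2 minus LPSx1. In the lists at full length Psmb3 had a promoter peak in 7 media, 8 LPSx1 and 6 LPSx2 libraries. Psmb2 had one there in 7, 8 and 3, and Psmd3 in 7, 8 and 7.

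**Figure D3:**
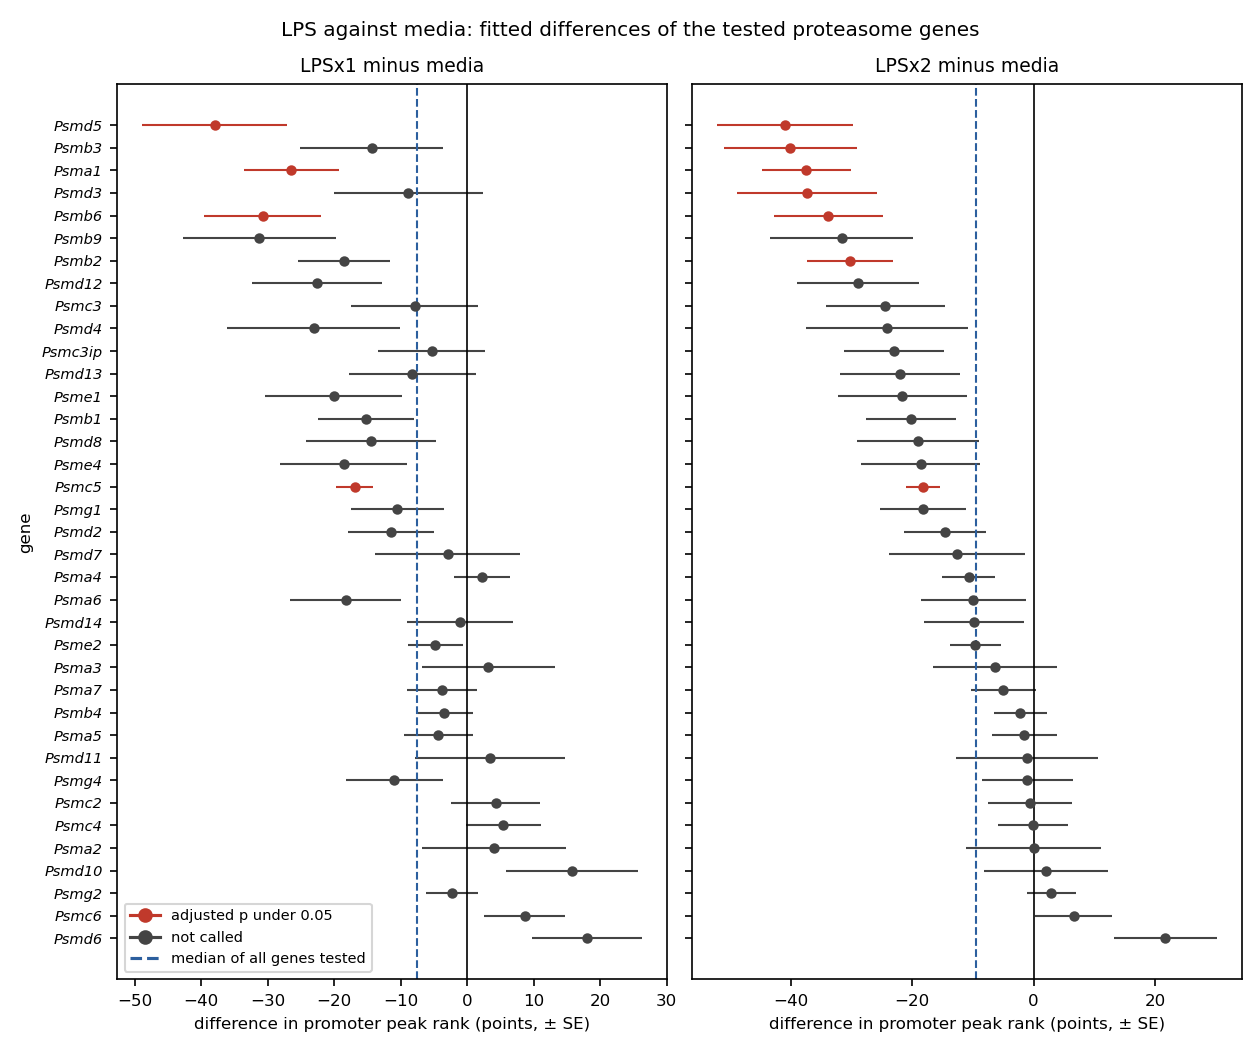
Fitted difference in promoter peak rank (points, with SE bars) of the 37 tested members for LPSx1 minus media (left) and LPSx2 minus media (right), ordered by the LPSx2 difference. Red points have an adjusted p under 0.05, and the dashed line is the median of all genes tested (-7.51 and -9.47).

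Not all members had a fitted difference below 0, with 9 of 37 above it in LPSx1 minus media and 4 of 37 in LPSx2 minus media. The lid subunit Psmd6 had the highest fitted differences, 18.0 ± 8.26 in LPSx1 minus media and 21.7 ± 8.49 in LPSx2 minus media, which missed the threshold (adjusted p = 0.148 and 0.0793 by limma), with a higher rank in LPSx2 in 5 animals and a lower rank in 0. Among promoter peaks alone the LPSx2 difference was 28.9 ± 8.56 and passed it (adjusted p = 0.0430 by limma). The ATPases Psmc4 and Psmc6 differed by 5.42 ± 5.63 and 8.64 ± 6.13 in LPSx1 minus media and by -0.10 ± 5.79 and 6.60 ± 6.30 in LPSx2 minus media, and neither was called. At the lower end, Psmd12, Psmc3 and Psmd4 had fitted LPSx2 differences of -28.9, -24.4 and -24.2 that missed the threshold (adjusted p = 0.0540, 0.0849 and 0.203 by limma). With the animal as a block Psmd12 passed it (-28.9 ± 7.95, adjusted p = 0.0310 by limma).

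**Figure D4:**
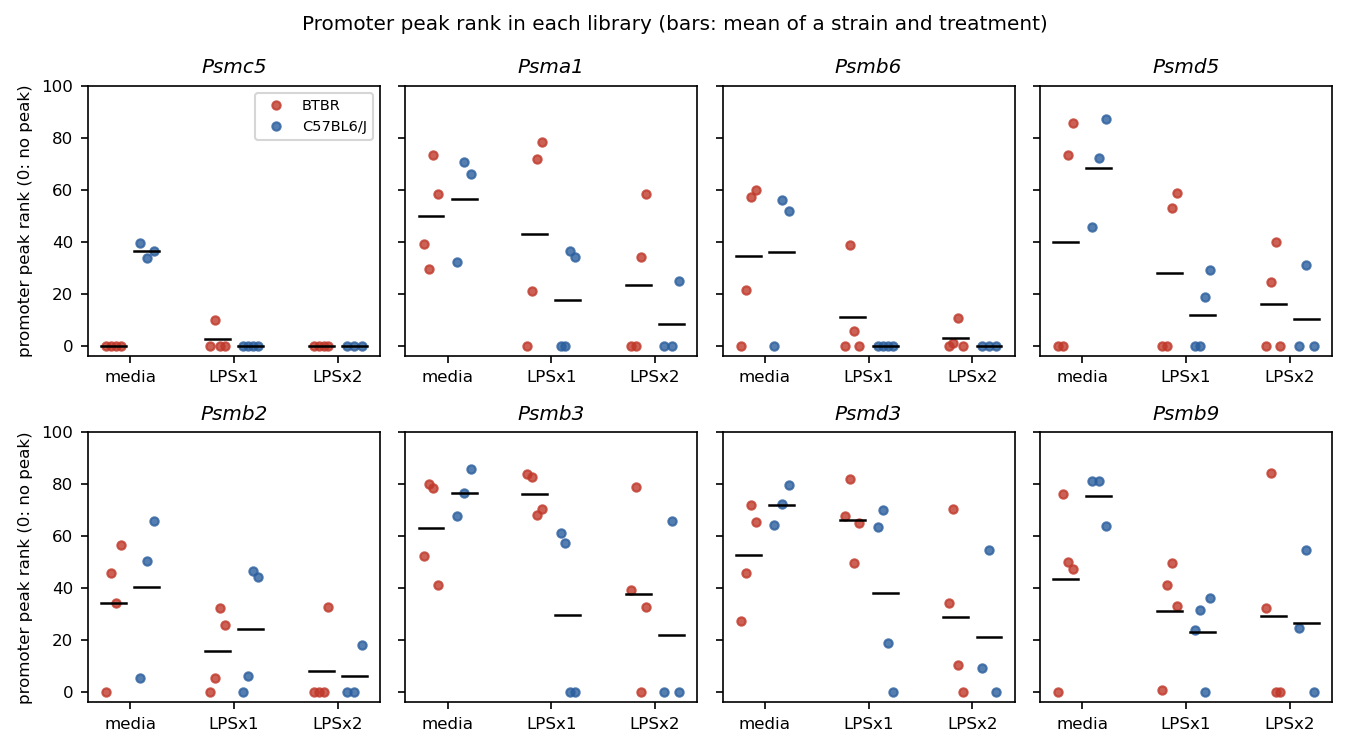
Promoter peak rank (0 where there was no peak) in each library of the 7 members called in any contrast and of Psmb9, by treatment, with BTBR libraries left of C57BL6/J libraries and bars at the mean of each strain and treatment. Psmc5 has values in all 3 C57BL6/J media libraries and in 1 BTBR LPSx1 library, and is at 0 in all others.

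The calls depended on how the lists were compared. When only promoter peaks were ranked against each other, the median difference of all genes was -0.70 in LPSx1 minus media and -1.24 in LPSx2 minus media, and that of the members was 0.19 and -3.81. Then 4.49% of all genes were lower and 3.79% higher with a single dose, and 5.37% lower and 4.62% higher with 2 doses, with 1 member lower in each and 1 member higher with 2 doses. In the lists at full length, without the lists that held duplicates, and in lanes 1 and 2 alone, limma called no member in either LPS contrast. Ranks compare a promoter with the other peaks of its library, so a lower rank does not separate a loss at the promoter from stronger peaks elsewhere.

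Of the 3 inducible or tissue-specific beta genes only Psmb9 had a promoter peak in enough libraries to be tested. Psmb9 shares its promoter peak with Tap1, and both had it in 6 media, 7 LPSx1 and 4 LPSx2 libraries. In the lists at full length Psmb9 had it in 7, 7 and 5. Its median rank in the limited lists was 64.0 in media (lowest 0, highest 81.5), 32.4 in LPSx1 (0 to 49.6) and 24.7 in LPSx2 (0 to 84.5). The differences were -31.3 ± 11.5 for LPSx1 minus media, with a lower rank in 6 of 7 animals, and -31.7 ± 11.8 for LPSx2 minus media, and both missed the threshold (adjusted p = 0.0782 and 0.0686 by limma). Psme2 had a rank of at least 70.2 in every library, with median ranks of 92.0 in media, 92.5 in LPSx1 and 85.6 in LPSx2. It differed by -4.76 ± 4.16 and -9.58 ± 4.27 (adjusted p = 0.452 and 0.117 by limma). Its partner Psme1 had medians of 29.4, 0 and 0.42 and differed by -20.0 ± 10.3 and -21.6 ± 10.6 (adjusted p = 0.195 and 0.150 by limma). Psmb10 had no promoter peak in the limited lists, but a region 1335 bp into the gene was present in 14 libraries, 10 from BTBR and 4 from C57BL6/J.

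Between the strains 1 member passed the threshold on promoter rank, Psmc5, lower in BTBR, against 1.07% of all genes lower and 0.507% higher in BTBR. It was also the 1 member past the threshold for the strain difference in response, in LPSx1 minus media and in LPSx2 minus media, against 0.0528% and 0.0739% of all genes. Its values are given as a description, since it was tested only because of its 3 C57BL6/J media libraries. Its rank was 0 in all 4 BTBR media libraries, against 39.3, 33.7 and 36.3 in the 3 C57BL6/J media libraries. After LPS it was 9.74 in the LPSx1 library of BTBR animal 3 and 0 in the other BTBR libraries and in all C57BL6/J libraries. With a rank of 0 in every BTBR media library no fall after LPS could be seen in BTBR, so the data cannot show whether the strains respond differently. With the animal as a block 0 members were called for a strain difference in response, and without BTBR animal 2, 5 or 8 the strain call and both calls of a strain difference in response were lost (adjusted p from 0.0612 to 0.133 by limma). In the full-length lists Psmc5 had a promoter peak in 3 of 4 BTBR and 3 of 3 C57BL6/J media libraries, and the strain difference in rank was 12.3, higher in BTBR (adjusted p = 0.933 by limma).

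The other members with large strain differences missed the threshold. Psmb1 averaged 68.6 ± 10.8 in BTBR and 45.0 ± 21.6 in C57BL6/J (difference 21.1 ± 5.68, adjusted p = 0.0895 by limma). Its means in BTBR and C57BL6/J were 68.4 and 68.9 in media, 72.3 and 36.9 in LPSx1, and 65.0 and 32.0 in LPSx2. Psmb3 averaged 59.1 ± 26.2 in BTBR and 41.5 ± 36.6 in C57BL6/J (19.3 ± 8.38, adjusted p = 0.342 by limma). Its means in BTBR and C57BL6/J were 63.0 and 76.8 in media, 76.4 and 29.7 in LPSx1, and 37.8 and 21.9 in LPSx2. For neither gene did the strain difference in response pass the threshold. Psma3 averaged 49.6 ± 24.0 in BTBR and 69.5 ± 18.5 in C57BL6/J (-17.3 ± 7.82, adjusted p = 0.364 by limma). Psmd11, Psme1 and Psma6 differed by 19.1, 16.6 and 13.8 rank points (adjusted p = 0.397, 0.432 and 0.413 by limma).

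The number of peaks assigned to each gene by the nearest start within 100 kb gave no call among the 29 members tested of 9137 genes. By limma 0 members were called in any of the 6 contrasts, against 5.58% of all genes in LPSx1 minus media, 6.22% in LPSx2 minus media, 0% in LPSx2 minus LPSx1, 1.98% between strains, and 0.0328% and 0.0109% for the strain differences in response. At an unadjusted p under 0.05 the members numbered 3, 2, 1, 7, 1 and 0 of 29 in these contrasts, against 1979, 2238, 400, 1353, 522 and 593 of the 9137 genes. Among them was the ATPase Psmc1, with 1.00 ± 0.29 more peaks in LPSx1 than in media (adjusted p = 0.0609 by limma) and 0.84 ± 0.23 fewer in BTBR than in C57BL6/J (adjusted p = 0.0874), written as -0.84 for BTBR minus C57BL6/J. In BTBR it had 1, 2, 0 and 0 peaks in LPSx1, against 1, 3, 0 and 0 in media. In C57BL6/J it had 3, 5, 2 and 2 peaks in LPSx1, against 0, 3 and 0 in media. The strain difference in this response was -2.50 ± 0.58 and missed the threshold (adjusted p = 0.458 by limma).

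Of the 771 peaks assigned to members over the 22 libraries 67.2% lay within 1 kb of the start, against 48.8% of the peaks of all genes. They fell into 80 regions at 40 genes, 39 within 1 kb and 41 farther away, and 8 regions were present in every library. Regions far from a start were seen in nearly every library at 3 genes. Relative to the start, Psmc6 had one at -4164 bp in 21 libraries, Psma1 one at -40491 bp in 21, and Psma3 one at 12763 bp in 20. At Psmc1, with no promoter peak, a region at -56774 bp was present in 14 libraries, and one at 5991 bp (chr12:100115992-100116299) in 6, all from C57BL6/J. Assignment to the nearest start does not show that a region acts on that gene.

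**Figure D5:**
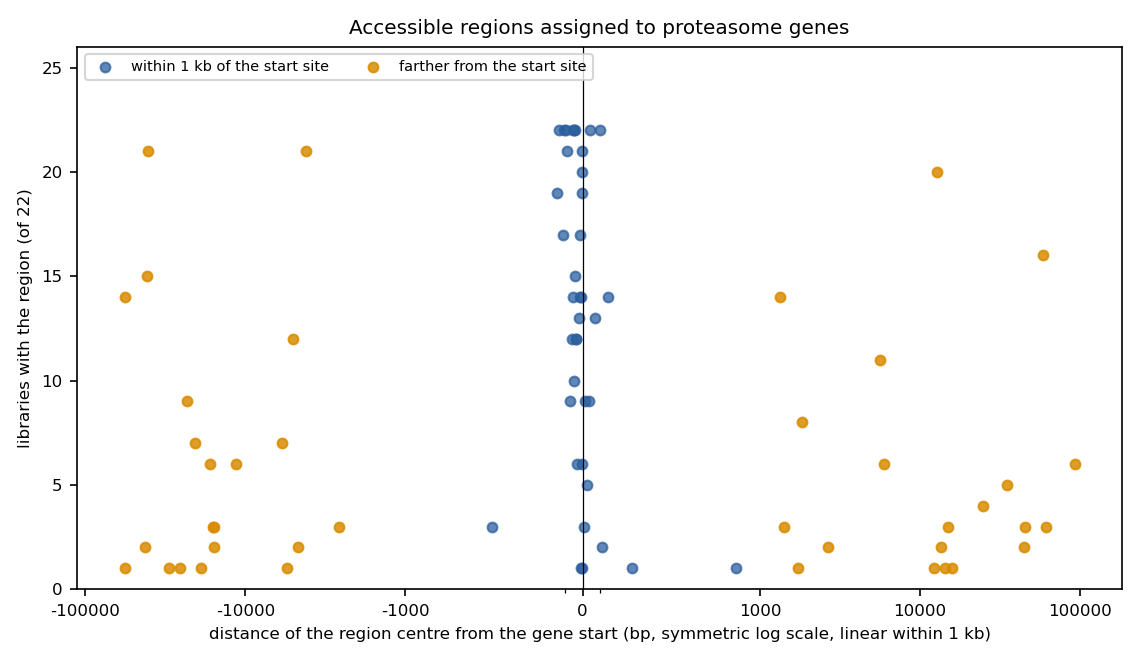
Number of libraries (of 22) that hold each of the 80 regions assigned to proteasome genes, against the distance of the region's centre from the gene start (bp, symmetric log scale). Regions within 1 kb (blue) reach all 22 libraries, and 3 of the farther regions (orange) are in 20 or 21.

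Region by region, a gain or loss was counted where a region was present in only one of 2 treatments in at least 5 animals and never the other way. With a single dose 1 of the 80 member regions was lost and 0 gained, against 1.17% and 1.86% of all 44999 regions. The lost region lay 1837 bp after the start of the alpha-ring gene Psma7 (chr2:180040440-180040707) and was present in 5 media, 0 LPSx1 and 3 LPSx2 libraries. With 2 doses 1 was lost and 0 gained, against 1.38% and 2.10% of all regions. It was the promoter of the base subunit Psmd2 (chr16:20651490-20651813), with a peak in 5 media, 1 LPSx1 and 0 LPSx2 libraries. In the lists at full length Psmd2 had a promoter peak in 6, 4 and 2. No member region changed between LPSx2 and LPSx1 or was specific to a strain, against 0.0289% gained, 0.0267% lost, 0.164% specific to BTBR and 0.313% specific to C57BL6/J among all regions. Psmc5, Psma2, Psmd13 and Psmg2 had promoter peaks but no region among the 80, which were assigned by the nearest start. Psmc2 had promoter peaks too, but its only region lay at 1407 bp. The promoters of all these genes were therefore not examined in this way. Regions at the starts of Psmb1 and Psmb9 were each present in 9 libraries, against promoter peaks in 22 and 17, so these were examined only in part. Farther regions of Psmd11 (at -11354 bp) and Psmg1 (at 92811 bp) were each present in 0 media, 3 LPSx1 and 3 LPSx2 libraries, short of the 5 animals required.

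Genes that work with the proteasome were read from a list of 28, of which 26 were tested on promoter rank, and those reported here are given by their own values. Rps27a, which encodes a fusion of ubiquitin and a ribosomal protein, had a mean rank of 33.9 ± 28.8 in media, 8.22 ± 11.7 in LPSx1 and 7.41 ± 17.9 in LPSx2. It was lower than in media by limma in LPSx1 (-28.7 ± 7.50, adjusted p = 0.0229) and in LPSx2 (-28.7 ± 7.71, adjusted p = 0.0205). Zfand5, a proteasome-binding protein, had 96.4 ± 2.86, 79.7 ± 10.7 and 90.2 ± 5.37 and was lower in LPSx1 than in media (-17.2 ± 3.71, adjusted p = 0.00920 by limma). Of all genes tested 13.0% were lower in LPSx1 minus media and 18.3% in LPSx2 minus media. In the lists at full length limma called no gene lower in LPSx1 minus media, so neither LPSx1 call was kept there. The polyubiquitin gene Ubb had 76.3 ± 11.1, 63.9 ± 20.2 and 48.6 ± 28.5 and was not called (adjusted p = 0.416 in LPSx1 minus media and 0.0555 in LPSx2 minus media by limma). Nfe2l1 and Nfe2l2, the transcription factors known to drive proteasome genes, had a promoter peak in all 22 libraries at mean ranks of 89.4 and 95.5 and were not called. Between strains Akirin2, which helps bring proteasomes into the nucleus, was lower in BTBR by 28.0 rank points, written as -28.0 ± 6.11 for BTBR minus C57BL6/J (adjusted p = 0.0299 by limma). Of 8 antigen-processing genes linked to interferon, 7 were tested. The aminopeptidase Erap1 was higher in LPSx2 than in media (30.5 ± 8.75, adjusted p = 0.0266 by limma) and the other 6 were not called in either LPS contrast.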

How the data were processed

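ATAC-seq peak lists of 24 libraries were used. Per the submitters' processing notes, Trimmomatic 0.38, SAMtools 1.8, Picard 2.18.4, bedtools and HOMER were used on mm10; the aligner is not given in the sources used here. The authors deposited 1 HOMER list per library, made from fragments under 147 bp at a false discovery rate of 0.01, and each peak carries a score whose scale is not stated, so the deposited score was used only for ranks within a list. No read counts were used here, so depth is unknown beyond the number of peaks. The peaks lay within the ends of all 21 chromosomes compared.

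Overlapping peaks of a list were merged, lists with under 5000 peaks were left out, and lists of a lane were limited to equal length. Each peak was assigned to the nearest GENCODE protein-coding start within 100 kb. For peak number, genes averaging 0.5 or more peaks a library, and for promoter rank, genes with a promoter peak in at least 4 libraries, were tested in 1 limma 3.58.1 fit (R 4.3.3, statmod 1.5.0) over the 6 groups with the lane as covariate, and p-values were adjusted by Benjamini-Hochberg across every gene tested (threshold 0.05). The libraries of an animal entered the strain contrast through an estimated correlation (-0.0669 for peak number, -0.0501 for promoter rank). Being below 0, this correlation did not widen the standard errors, though there were 4 animals per strain. The strain p-values thus treat the libraries of an animal much as independent and may be too small. The fit was tested on simulated data. Other steps used Python 3.11.15, numpy 2.4.6, pandas 2.3.3, scipy 1.17.1, matplotlib 3.10.9 and data.table (version 1.17.8).

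The replicate number of the labels is the animal, so libraries are paired by design. Deviations from the group means correlated at a mean of 0.338 between libraries of the same animal (0.0483 to 0.618 over 21 pairs) and at -0.119 between animals of a strain (60 pairs). Additional PCR cycles of the kept libraries numbered 6 to 8 in lanes 1 and 2 and 10 to 13 in lanes 3 and 4, so cycles and lane cannot be told apart.

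The members, gene lists and tests were chosen with earlier results of these data known. Values are given for members called in any contrast, the 6 with the largest differences in promoter rank per contrast, the inducible members and those with a promoter peak in under 11 libraries; 1 further gene of the family, and some genes of the list of genes that work with the proteasome, are not reported here. Other list lengths, merging, windows, filters, covariates and left-out animals were tried, and ranking among promoter peaks alone was added after seeing the data.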

Additional observations from a re-analysis of the deposited data

Results flagged for a closer look

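Of 36 sets of values examined, 6 held a single library that stood far from the rest of its treatment group, all in promoter peak rank. The sets were the ranks of single genes, and the number and share of member peaks, within a treatment. The gap rule has a rate of 1 in 20 for normally distributed values. Many of these ranks were 0, so that rate does not hold here and the flags are a description. In the LPSx1 group BTBR animal 3 was the highest library for Psmb6 (38.8, n = 8), for Psmc5 (9.74, with 0 in all others) and for Psme1 (66.3). The same animal was the highest of the LPSx2 libraries for Psme1 (67.2, n = 7). BTBR animal 5 was the highest LPSx2 library for Psmb6 (10.5), and BTBR animal 2 was the only media library with no promoter peak at Psmb9 (0, n = 7).

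The fitted response of Psmc5 in BTBR minus that in C57BL6/J was 38.7 rank points for LPSx1 minus media and 36.4 for LPSx2 minus media (adjusted p = 0.0144 and 0.0246 by limma), and neither was called with the animal as a block. The rank was 0 in all BTBR media libraries, so no fall could be seen there, and the gene was tested only because of its 3 C57BL6/J media libraries. The values therefore do not show that the strains respond differently. The peak was present in 0 of 4 BTBR and 3 of 3 C57BL6/J media libraries in the limited lists, and in 3 of 4 and 3 of 3 in the full-length lists.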

How the results depend on the processing

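The number of peaks is the only measure of depth, so a promoter with no peak is one not detected at that list length. For promoter rank in LPSx1 minus media, where 4 members were called, the replicate block (animal in place of lane) gave 2, no lane covariate 1, full-length lists 0, peaks not merged 1, the stronger 50% of each list 2, without the lists that held duplicates 0, lanes 1 and 2 alone 0, a promoter peak in at least 11 libraries 2, presence or absence of a peak 0 and rank among promoter peaks alone 1. In LPSx2 minus media, where 7 were called, the replicate block also gave 7, with Psmd12 in place of Psmd3, while no lane covariate gave 1, full-length lists 0, the stronger 50% of each list 1, without the lists that held duplicates 0, lanes 1 and 2 alone 0, presence or absence 0 and promoter peaks alone 2. Over all genes the full-length lists gave 69 higher and 0 lower genes with LPSx1 and 62 and 2 with LPSx2, of 11492 tested. The strain call and both calls of a strain difference in response (1 each) became 0 with full-length lists, peaks not merged, the stronger 50%, without the lists that held duplicates, lanes 1 and 2 alone, a peak in at least 11 libraries, presence or absence and promoter peaks alone. The strain call also became 0 with no lane covariate, and the strain differences in response became 0 with the replicate block. With full-length lists the Psmc5 strain difference reversed to 12.3 (adjusted p = 0.933 by limma).

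For peak number, where no member was called, 1 was called in LPSx1 minus media with peaks not merged, with the outermost 5′ end of each gene and without the filter on low peak numbers. In LPSx2 minus media 2, 1 and 1 were called under the same settings, and between strains 1 with peaks not merged and 1 with peaks within 25 kb. Leaving out each animal in turn gave 0 to 1 members for peak number in either LPS contrast and 0 in the others. For promoter rank it gave 0 to 3 in LPSx1 minus media, 1 to 9 in LPSx2 minus media, 0 in LPSx2 minus LPSx1, and 0 to 1 between strains and for each strain difference in response. The cause of these changes was not tested.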

Other observations

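Of the 2 left-out lists, both from C57BL6/J animal 6, the LPSx2 list held a promoter peak at Psma5 and Psma2, 2 alpha-ring genes that had one in 22 and 21 of the kept libraries.

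In the number of peaks assigned to genes, Ngly1, the glycanase that processes the Nfe2l1 factor, had 1.00 more peaks in LPSx2 than in media (adjusted p = 0.0228 by limma). Erap1 had 1.56 more peaks in LPSx1 than in media (adjusted p = 0.0238 by limma).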
